A study of Mus musculus with 21 samples.

Results

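The progression of a cell from G1 into S phase was followed through 10 genes: the D-type cyclins Ccnd1, Ccnd2 and Ccnd3, the E-type cyclins Ccne1 and Ccne2, the Ink4 genes Cdkn2a, Cdkn2b and Cdkn2c, the Kip gene Cdkn1b, and Rb1. The genes were taken by symbol, and all 10 are listed in each of the 3 deposited tables, which together list 12404 genes. The study measured total RNA of mouse embryonic fibroblasts (MEFs) of the ICR strain, from embryos of day 13.5 at passage 2, which carried retroviral constructs for 48 hours. The tables hold 21 libraries, 7 in each, and every combination of constructs is 1 library, so no group has a replicate of its own.

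The MEF table has a control (Flag with shLuc, a hairpin against luciferase), and libraries with Dnmt1, with the hairpin shDnmt1, with the hairpin shp53, with shp53+shDnmt1, and with Tet1CD, by its name the catalytic domain of the dioxygenase Tet1. Its 7th library, 5C control, carries the same Flag and shLuc constructs. Its column header adds a day 4, which its labels do not give, and what 5C stands for is not given in the labels. The 14 SKOM libraries are MEFs infected with retroviruses for Sox2, Klf4, Oct4 and c-Myc and collected on day 5, in medium without (Vc-) or with (Vc+) vitamin C. Each medium has a control and libraries with Dnmt1, shDnmt1, Tet1CD, Tet1CD+Dnmt1, Tet1CD+shDnmt1 and shp53+shDnmt1. No SKOM library has shp53 without shDnmt1.

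D-type cyclins bind the kinases Cdk4 and Cdk6, and E-type cyclins bind Cdk2. Both complexes phosphorylate the retinoblastoma protein, encoded by Rb1, which releases E2F factors to switch on S phase genes. The Ink4 proteins p16 (Cdkn2a), p15 (Cdkn2b) and p18 (Cdkn2c) inhibit Cdk4 and Cdk6, and p27 (Cdkn1b) inhibits mainly the Cdk2 complexes. Cdkn2a also encodes Arf, which stabilises p53. The neighbouring Cdkn2b and Cdkn2a genes rise as cultured fibroblasts age, and are known as a barrier to reprogramming.

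The deposited values are whole numbers that the authors had normalized within each table, so they carry no sequencing depth, and a level in one table is not on the scale of another. Near the top of a table the values come in steps that blocks of 10 genes share. Tet1 was listed at 2140 to 3129 in the 6 SKOM libraries with Tet1CD and at 11 to 88 in the 8 without. Dnmt1 was lower in each shDnmt1 library than in its control, but in the library labelled Dnmt1 it was 975 against 957 in MEFs, 1001 against 984 in Vc- and 2381 against 2346 in Vc+. All 10 fibroblast markers examined were listed in MEFs and Vc+ cells and 9 in Vc- cells, where Pdgfra is not listed. Of 8 pluripotency markers only Pou5f1 and Sox2, which the viruses carry, were listed in SKOM cells. Bulk values cannot tell fewer cells of a type from less RNA per cell.

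On mm10, Cdkn2a (4:89274471-89294653) and Cdkn2b (4:89306299-89311039) lie side by side on the minus strand of chromosome 4. A single value per gene cannot separate the p16 transcript of Cdkn2a from the Arf transcript. Rb1 (14:73183673-73325822, minus strand) contains Lpar6 on the plus strand and overlaps Rcbtb2, Ccnd1 overlaps LTO1, Ccnd3 overlaps Bysl, and Ccne2 overlaps Ints8. Since the strand setting of the counting is not given in the sources used here, reads of overlapping genes may be shared. All 3 tables name a 411-base noncoding transcript for Rb1 and a 418-base one for Ccne2, and whether the values count that transcript or the whole gene is not given in the sources used here.

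RefSeq promoters (GRCm38.p6) were matched for 6 of the 10 genes. The 250 bases before the start are shown for the Cdkn2a and Cdkn2b starts, which sit in one locus and whose values differed in pattern, and for Ccne1 and Cdkn1b, which fell with Tet1CD in Vc+ cells. Tet1 oxidises methylated CpG, and all promoters of this length hold a median of 6 CpG. Capitals mark an E2F motif (TTTCCCGC, TTTCGCGC, TTTGCCGC or TTTGGCGC) or a GC box (GGGGCGGGG), each searched on both strands; the marked matches do not overlap.
Cdkn2a, Arf start, 4:89294620-89294869, minus strand: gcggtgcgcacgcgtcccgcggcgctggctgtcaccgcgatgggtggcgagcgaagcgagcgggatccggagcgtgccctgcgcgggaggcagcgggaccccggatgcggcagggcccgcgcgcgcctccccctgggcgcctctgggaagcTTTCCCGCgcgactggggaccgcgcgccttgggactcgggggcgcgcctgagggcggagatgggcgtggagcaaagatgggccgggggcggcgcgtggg
Cdkn2a, p16 start, 4:89282193-89282442, minus strand: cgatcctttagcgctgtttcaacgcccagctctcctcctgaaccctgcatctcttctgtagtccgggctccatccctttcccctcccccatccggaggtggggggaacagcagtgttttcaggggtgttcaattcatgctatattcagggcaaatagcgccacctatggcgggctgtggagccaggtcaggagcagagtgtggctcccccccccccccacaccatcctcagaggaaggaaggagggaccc
Cdkn2b, 4:89311033-89311282, minus strand: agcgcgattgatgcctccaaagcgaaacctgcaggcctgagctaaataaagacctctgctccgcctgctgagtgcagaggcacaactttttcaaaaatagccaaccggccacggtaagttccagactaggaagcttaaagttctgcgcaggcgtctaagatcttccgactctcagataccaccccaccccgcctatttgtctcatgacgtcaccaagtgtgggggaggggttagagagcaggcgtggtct
Ccne1, 7:38107491-38107740, minus strand: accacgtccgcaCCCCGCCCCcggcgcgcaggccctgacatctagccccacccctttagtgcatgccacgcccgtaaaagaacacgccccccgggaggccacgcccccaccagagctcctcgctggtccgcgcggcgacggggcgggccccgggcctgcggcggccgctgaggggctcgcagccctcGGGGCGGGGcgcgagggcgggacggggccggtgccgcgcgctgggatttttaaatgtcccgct
Cdkn1b, 6:134920151-134920400, plus strand: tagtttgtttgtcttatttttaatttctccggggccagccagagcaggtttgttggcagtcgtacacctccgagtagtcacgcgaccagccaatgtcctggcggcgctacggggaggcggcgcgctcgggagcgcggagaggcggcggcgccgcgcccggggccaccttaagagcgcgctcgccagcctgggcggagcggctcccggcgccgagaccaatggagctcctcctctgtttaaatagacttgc
The Arf start has 40 CpG and the only E2F match among the members' promoters, while 1.86% of all 32851 promoters hold one. The p16 start has 7 CpG and Cdkn2b has 12. Ccne1 has 34 CpG and 2 GC boxes, a motif that 10.4% of promoters hold, and Cdkn1b has 28 CpG. A match describes the letters of the window, and its absence says nothing of a factor. No DNA methylation was measured.

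**Figure D1:**
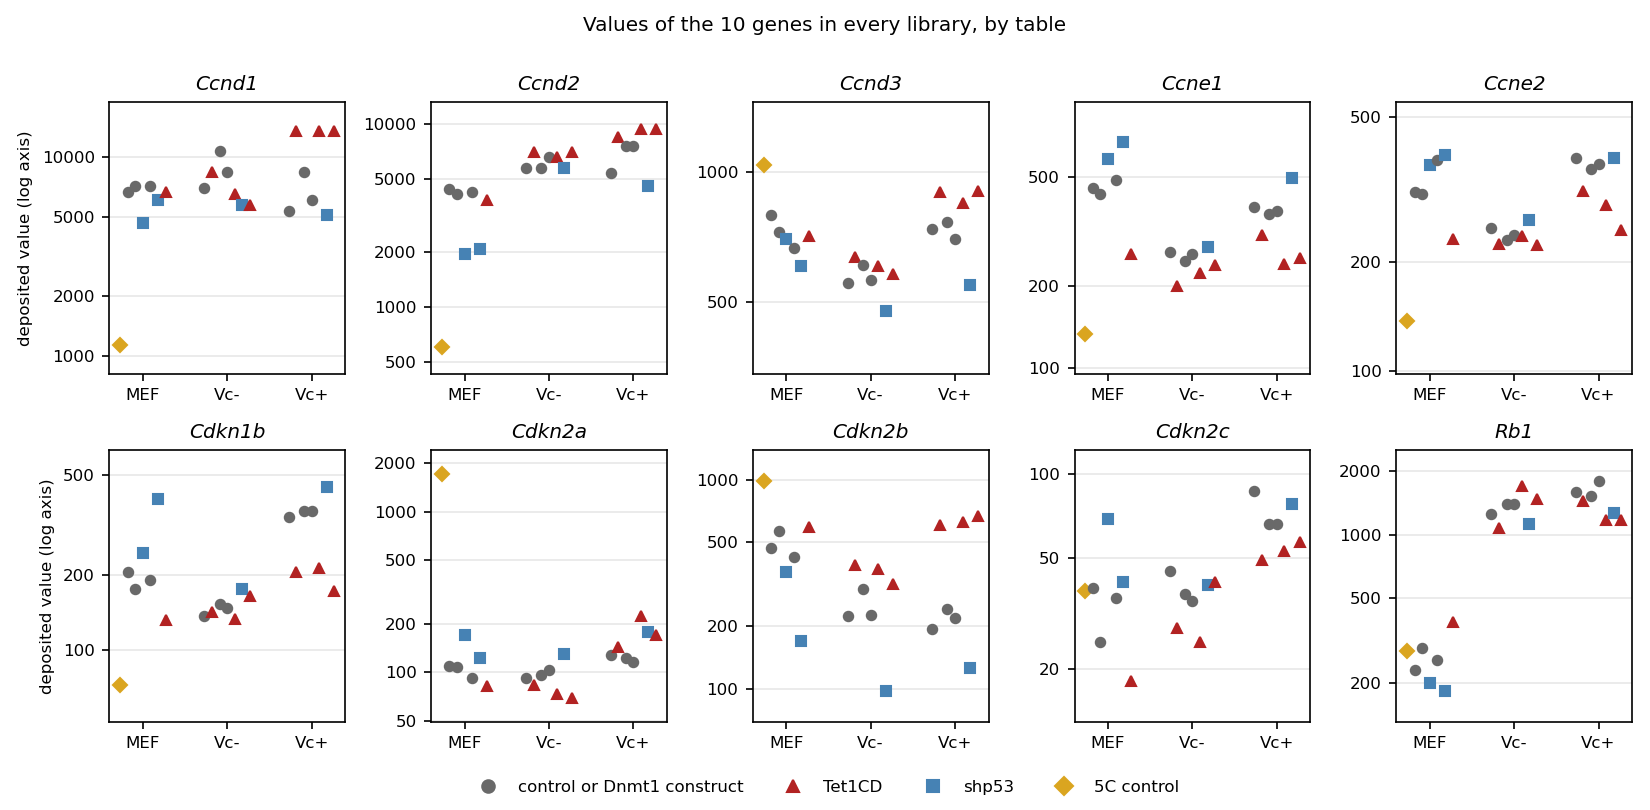
Deposited value (log axis, scaled for each gene) of the 10 genes in the 21 libraries, grouped by table; each point is 1 library, triangles carry Tet1CD, squares shp53, and the diamond is 5C control. In the Vc+ column the Tet1CD triangles of Ccnd1 (13537) and Cdkn2b (603 to 671) sit above every other Vc+ point, and those of Cdkn1b (172 to 213) sit below.

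In vitamin C medium the presence of Tet1CD went with more D-type cyclin RNA, less E-type cyclin and p27 RNA, and more RNA of the Cdkn2b gene. Within the 7 Vc+ libraries, 5 of the 10 genes rose and 4 fell with Tet1CD (limma on log2(value + 5), Benjamini-Hochberg adjusted p under 0.05 over all genes). The same fit called 44.2% of all 12021 genes (20.7% upward and 23.6% downward), so a call by itself is common in this comparison. Without an intensity trend 6 of the 9 calls held, and Ccnd3 (adjusted p = 0.074), Cdkn2a (0.0655) and Rb1 (0.0685) lost theirs. Cdkn2c, at 49 to 57 with Tet1CD and 66 to 87 without, did not pass (log2 change -0.42 ± 0.17 SE, adjusted p = 0.088).

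Ccnd1, the main D-type cyclin of mitogen-stimulated fibroblasts, was at 13537 in all 3 Vc+ libraries with Tet1CD. It was at 8451 in the control, 6109 with shDnmt1, 5359 with Dnmt1 and 5150 with shp53+shDnmt1. The groups did not overlap, and the log2 change was 1.05 ± 0.14 (SE, adjusted p = 0.00217). The 3 equal values are 1 step of the table, whose neighbouring steps are 10325 and 18103. Differences smaller than a step therefore cannot be seen and do not enter the SE. For this gene and those below, the share of all genes whose groups did not overlap is not reported here.

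Ccnd2 was at 9346 with Tet1CD, 9346 with Tet1CD+shDnmt1 and 8452 with Tet1CD+Dnmt1. Without Tet1CD it was at 7539 in the control, 7539 with shDnmt1, 5361 with Dnmt1 and 4584 with shp53+shDnmt1. These groups were also apart, by a smaller amount (0.43 ± 0.10, adjusted p = 0.0178). Ccnd3 was at 904, 846 and 900 in the same 3 Tet1CD libraries and at 766, 699, 739 and 546 in the same 4 others (0.26 ± 0.08, adjusted p = 0.042). All 3 D-type cyclins thus rose, Ccnd1 the most.

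The E-type cyclins, whose RNA is made at the G1/S border, moved the other way. Ccne1 was at 252 with Tet1CD, 240 with Tet1CD+shDnmt1 and 306 with Tet1CD+Dnmt1, below the 365 of the control, 377 with shDnmt1, 387 with Dnmt1 and 495 with shp53+shDnmt1 (-0.50 ± 0.10, adjusted p = 0.0101). Ccne2 was at 244 to 313 with Tet1CD and 360 to 385 without (-0.41 ± 0.10, adjusted p = 0.0185). Neither gene's groups overlapped.

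Among the inhibitors, Cdkn2b showed the largest change of the 10 genes. It was at 671 with Tet1CD, 625 with Tet1CD+shDnmt1 and 603 with Tet1CD+Dnmt1, against 239 in the control, 218 with shDnmt1, 193 with Dnmt1 and 126 with shp53+shDnmt1. The change was 1.53 ± 0.09 (adjusted p = 0.000273), a 2.89-fold rise. Cdkn1b fell, by a smaller amount, with 172, 213 and 205 in the same Tet1CD libraries and 361, 361, 340 and 449 in the others (-0.84 ± 0.11, adjusted p = 0.00216). The Ink4 gene Cdkn2b and the Kip gene Cdkn1b therefore changed in opposite directions.

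Cdkn2a was at 170 with Tet1CD, 226 with Tet1CD+shDnmt1 and 144 with Tet1CD+Dnmt1, and at 117 to 178 without. Its groups overlapped, through the 178 of shp53+shDnmt1, and the change of 0.51 ± 0.16 was near the threshold (adjusted p = 0.0422). Rb1 was at 1173, 1167 and 1436 with Tet1CD and at 1269 to 1781 without, also with overlap (-0.37 ± 0.11, adjusted p = 0.0357).

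With 2 residual degrees of freedom these calls differ in how far they rest on 1 library. The shp53+shDnmt1 library is the only one with shp53, so the fit takes it up with a term of its own and leaving it out tests nothing here. The calls of Ccnd1, Cdkn1b and Cdkn2b held whichever of the other 6 libraries was left out. Ccnd2 and Ccne1 lost theirs without Dnmt1 or without Tet1CD+Dnmt1 (highest adjusted p 0.113 and 0.0525), and Ccne2 in these cases, without the control and without Tet1CD (highest 0.0974). Ccnd3, Cdkn2a and Rb1 lost theirs without any 1 of these 6, with adjusted p up to 0.265, 0.0986 and 0.1003.

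Without vitamin C, no member passed the test for Tet1CD in limma, with or without an intensity trend, where 14.6% of all 10722 genes did with the trend (7.25% upward and 7.38% downward); 4 members had an unadjusted p under 0.05. Cdkn2b came nearest, at 316 with Tet1CD, 373 with Tet1CD+shDnmt1 and 391 with Tet1CD+Dnmt1 against 301 in the control, 226 with shDnmt1, 222 with Dnmt1 and 97 with shp53+shDnmt1. The groups were apart, with a log2 change of 0.53 ± 0.14 (adjusted p = 0.0521). Cdkn2a was at 69 to 84 with Tet1CD and 93 to 131 without (-0.36 ± 0.11, adjusted p = 0.0692), a change opposite in sign to that in Vc+ cells. Ccne1 was at 199 to 237 with and 247 to 278 without (-0.23 ± 0.09, adjusted p = 0.12).

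Ccnd1 in Vc- cells was at 5732 with Tet1CD, 6566 with Tet1CD+shDnmt1 and 8451 with Tet1CD+Dnmt1, within the range of the others, which ran from 5732 with shp53+shDnmt1 to 10782 in the control (-0.34 ± 0.19, adjusted p = 0.263). Cdkn1b was at 133 to 164 with Tet1CD and 136 to 175 without (0.01 ± 0.08, adjusted p = 0.971).

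Whether the Tet1CD change differed between the media was tested by an interaction term over the 14 SKOM libraries. Each medium is a separately normalized table, so medium and table cannot be told apart in this term. The change differed for 4 of the 10 genes, beside 16.9% of all genes (8.57% with a higher and 8.28% with a lower change in Vc+ cells). The change in Vc+ minus that in Vc- was 1.39 ± 0.27 for Ccnd1 (adjusted p = 0.0103), 1.00 ± 0.19 for Cdkn2b (adjusted p = 0.00834), 0.87 ± 0.20 for Cdkn2a (adjusted p = 0.0204) and -0.84 ± 0.14 for Cdkn1b (adjusted p = 0.00516). Ccne2 (-0.34 ± 0.12, adjusted p = 0.0763) and Rb1 (-0.42 ± 0.16, adjusted p = 0.103) did not pass. The Cdkn2a difference lost its call without the Vc- control, shDnmt1, Tet1CD+shDnmt1 or Tet1CD library (highest adjusted p 0.0842), and the other 3 held in each of the 12 fits that left out a library other than shp53+shDnmt1.

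**Figure D2:**
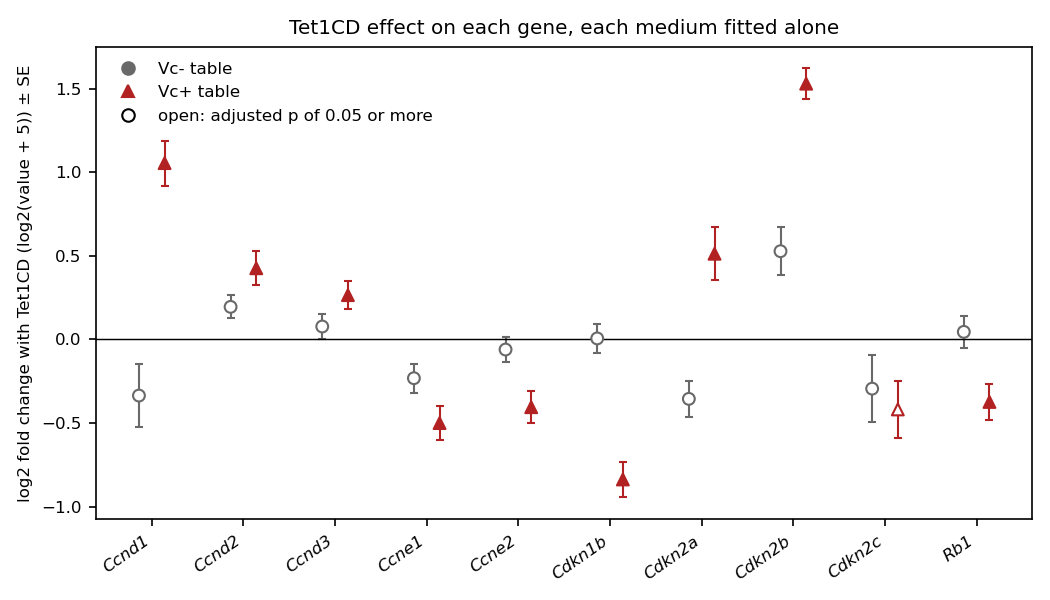
Log2 fold change with Tet1CD (y axis, log2(value + 5), ± SE from limma) for each gene (x axis), each medium fitted alone over 7 libraries; filled points have an adjusted p under 0.05. In Vc- cells Ccnd1 is at -0.34, Cdkn2a at -0.36 and Cdkn1b at 0.01, apart from their Vc+ points at 1.05, 0.51 and -0.84, and no Vc- point is filled.

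Averaged over both media in the additive fit of 14 libraries, 3 members rose and 4 fell with Tet1CD, where 45.2% of all 10711 genes were called (20.3% upward and 24.9% downward). Cdkn2b rose by 1.03 ± 0.17 (adjusted p = 0.000766), and Ccnd2 (0.31 ± 0.11, adjusted p = 0.0314) and Ccnd3 (0.17 ± 0.06, adjusted p = 0.0457) rose less. Ccne1 (-0.37 ± 0.09, adjusted p = 0.00715), Ccne2, Cdkn1b and Cdkn2c (-0.36 ± 0.13, adjusted p = 0.0367) fell. Only Ccne1 and Cdkn2b kept their calls in all 14 fits that left out 1 library, and 2 members were called without the Vc+ Dnmt1 library.

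The S phase genes downstream of the G1 cyclins were mostly lower with Tet1CD. Of 24 S phase genes driven by E2F, 23 fell in Vc+ cells and 18 in Vc- cells. These shares of 95.8% and 75% stand beside 23.6% and 7.38% of all genes. The median log2 changes of the S phase genes were -0.96 and -0.46, beside -0.07 and -0.01 over all genes. In Vc+ cells Mcm10, of the replication machinery, changed by -1.26, Uhrf1, which brings Dnmt1 to replicating DNA, by -1.21, Ccna2, the S phase cyclin, by -1.14 and Tk1, of thymidine salvage, by -1.11. Among 14 pocket proteins, E2F and DP factors, 9 fell in Vc+ cells (64.3%) and 1, E2f8, in Vc- cells (7.14%, near the share of all genes). In Vc+ cells E2f2 changed by -1.25, Tfdp1 by -0.69, E2f8 by -0.66 and the Rb1 relative Rbl1 by -0.64.

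Of the 11 G1 kinases, activators and other inhibitors, 1 rose and 4 fell in Vc+ cells, shares of 9.09% and 36.4% beside 20.7% and 23.6% of all genes. The riser was Cdkn1a (p21), a p53 target, at 3633 to 4779 with Tet1CD and 2418 to 2946 without (0.62, adjusted p = 0.00865). Cdkn1c (p57) changed by -1.16, Cdk4 by -0.90, Cdk2 by -0.86 and the phosphatase Cdc25a by -0.69. In Vc- cells 3 of 10 fell (30%, beside 7.38% of all genes): Cdk2 (-0.56), Cdk4 (-0.45) and Cdc25a (-0.31). In Vc+ cells Cdk4 and Cdk2, partners of the D-type and E-type cyclins, were thus lower, while the D-type cyclins were higher.

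Of 15 listed parts of the ubiquitin ligases that degrade G1 cyclins and p27, 6 fell in Vc+ cells (40.0%, beside 23.6% of all genes) and none rose, and 3 fell in Vc- cells (20%, beside 7.38%). Skp2, which marks p27 for degradation, changed by -1.25 in Vc+ cells, and the small Cdk-binding proteins Cks2 and Cks1b by -1.10 and -0.85. Of 30 regulators of the Ink4 locus or of Cdkn1b, 5 rose and 10 fell in Vc+ cells, and 1 rose and 2 fell in Vc- cells. These shares of 16.7%, 33.3%, 3.33% and 6.67% stand beside 20.7%, 23.6%, 7.25% and 7.38% over all genes. Foxo4, of a family of factors that act on Cdkn1b, changed by -1.79, and Ezh2 and Cbx2, Polycomb proteins that hold the Ink4 locus silent, by -0.96 and -0.79. Tgfb1, a growth factor that induces Cdkn2b, changed by 1.07. Of 6 genes of the Arf and p53 branch, 2 rose and 2 fell in Vc+ cells, 33.3% each way, with Mdm2 at 0.85 and Trp53 at -0.45.

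**Figure D3:**
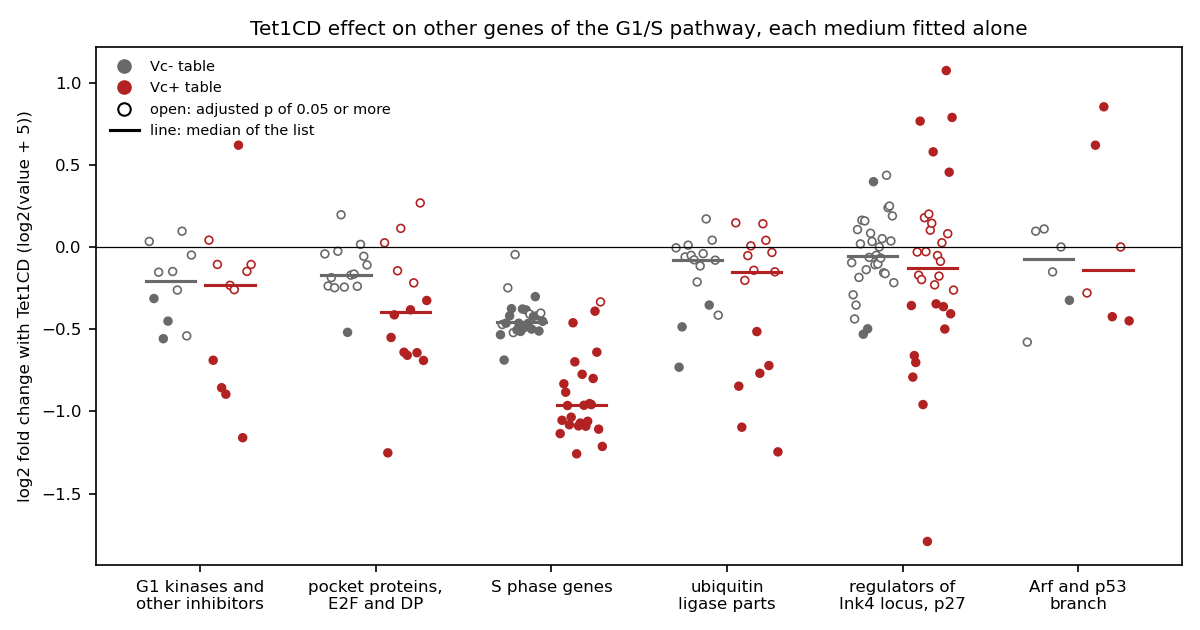
Log2 fold change with Tet1CD (y axis, log2(value + 5)) of the other genes of the pathway in 6 lists (x axis), each medium fitted alone; each point is a gene, filled where the adjusted p is under 0.05, and lines are list medians. The S phase genes lie below 0 in both media, and in Vc+ cells 23 of the 24 points are filled.

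Other genes moved with Tet1CD in the same libraries. Of the 10 macrophage and leukocyte markers, 5 are listed in Vc+ cells and 4 in Vc- cells. Each of those markers rose with Tet1CD, beside 20.7% and 7.25% of all genes. Their summed value was 2449 to 3250 with Tet1CD and 338 to 493 without in Vc+ cells, and 633 to 735 and 302 to 400 in Vc- cells. The defining markers Adgre1, Cd14, Csf1r, Fcer1g and Tyrobp are not listed in either, and Ptprc was at 0 in the Vc+ control and in Vc- shp53+shDnmt1. Myc, which the viruses also supply, was at 6109 to 7995 with Tet1CD and 13535 to 18104 without in Vc+ cells, and at 7021 to 10782 and at the table's ceiling of 19681 in Vc- cells. Of the 6 epithelial markers listed in Vc+ cells 5 fell with Tet1CD (83.3%, beside 23.6% of all genes, median log2 change -1.38). Their sum, 3161 to 3441 with and 3097 to 4150 without, nevertheless overlapped. Of the 5 epithelial markers listed in Vc- cells 1 rose and 1 fell (20% each way, beside 7.25% and 7.38% of all genes). Of the 10 fibroblast markers 5 rose and 1 fell in Vc+ cells (median 0.39). These shares of 50% and 10% stand beside 20.7% and 23.6% of all genes. The fibroblast sums were 50274 to 59535 with Tet1CD and 35569 to 58686 without, with Lum at 0 in shp53+shDnmt1. Of 9 in Vc- cells 2 rose and 1 fell (22.2% and 11.1%). Pou5f1 and Sox2 both fell in Vc+ cells (median -0.75), with sums of 5455 to 5759 with Tet1CD and 8657 to 10692 without, and neither passed in Vc- cells, where the sums were 4930 to 6511 and 5662 to 7332. Their part in the changes of the G1 genes was not tested.

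In MEFs without reprogramming factors, Tet1CD against its control, 1 library each, gave lower Ccne1 (261 and 488, 1.85-fold), Ccne2 (231 and 380, 1.63-fold) and Cdkn2c (18 and 36, 1.78-fold), and higher Rb1 (385 and 255, 1.5-fold). These 4 of 10 members were at or past 1.5-fold, as were 13.5% of all 11151 genes. Cdkn2b was at 591 and 428, and Ccnd1 at 6682 and 7153. Of the 24 S phase genes 20 were at least 1.5-fold lower and none higher, beside the 13.5% of all genes in either direction. Their median log2 ratio was -0.85, beside -0.01 over all genes. The 6 listed macrophage markers summed to 1421 with Tet1CD and 239 in the control. In MEFs without Tet1CD they also summed to 1008 with shDnmt1, 974 with Dnmt1, 536 with shp53 and 106 with shp53+shDnmt1. A sum above the control was therefore not particular to Tet1CD. Of the ranks of the Tet1CD library, 35.8% hold another value than in the control. A single pair has no replicate check.

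No member passed the test for either Dnmt1 construct. For shDnmt1 in the 14 SKOM libraries limma called 0 members, with or without a trend, and 0 had an unadjusted p under 0.05, where 0.0187% of all genes were called. For Dnmt1 the counts were 0, 0 and 0.0%. The member changes ran from -0.20 ± 0.15 (Cdkn2c) to 0.13 ± 0.20 (Cdkn2a) for shDnmt1 and from -0.18 ± 0.29 (Ccnd1) to 0.14 ± 0.09 (Ccne2) for Dnmt1. In MEFs no member was past 1.5-fold with either construct against the control, beside 5.91% of genes for shDnmt1 and 3.04% for Dnmt1. With shp53+shDnmt1 against shp53 in MEFs, 1 library each, 3 members were past it. Cdkn2b (363 and 169, 2.115-fold) and Cdkn2c (69 and 41, 1.61-fold) were higher and Cdkn1b (243 and 400, 1.63-fold) was lower. The share of all genes for that pair is not reported here.

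The p53 hairpin was compared in 4 pairs of libraries. Trp53 fell from 1008 to 157 with shp53 in MEFs, from 966 to 186 with shp53+shDnmt1 against shDnmt1 in MEFs, from 810 to 453 in Vc- cells and from 1304 to 621 in Vc+ cells. In the MEF pair of shp53 and control 3 of 10 members were past 1.5-fold, beside 22.5% of genes: Cdkn2b was lower (169 and 428, 2.49-fold), Ccnd2 was lower (2076 and 4249, 2.04-fold) and Cdkn1b was higher (400 and 191, 2.07-fold). In the second MEF pair 5 were past it, beside 21.0% of genes: Ccnd2 (1953 and 4128, 2.11-fold), Cdkn2b (363 and 570, 1.56-fold) and Ccnd1 (4671 and 7153, 1.53-fold) were lower, and Cdkn2c (69 and 25, 2.47-fold) and Cdkn2a (171 and 108, 1.56-fold) higher.

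Cdkn2b and Ccnd2 were the members past 1.5-fold in both MEF pairs, each downward, as were 6.39% of all genes. With p53 reduced, 21 of the 24 S phase genes were at least 1.5-fold higher in the first MEF pair and 23 in the second, and none was lower. Of all genes, 22.5% and 21.0% were that far apart in these pairs, in either direction. Ccna2, for example, was at 2156 with shp53 and 767 in the control, and Cdkn1a, the p53-induced inhibitor, was at 767 and 2386. Ccne1 was at 672 and 488, and Ccne2 at 392 and 380, both under 1.5-fold.

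In SKOM cells Cdkn2b was again lower with shp53+shDnmt1 than with shDnmt1, at 97 against 226 in Vc- cells (2.27-fold, the only member past 1.5-fold, beside 3.66% of genes downward and 2.31% upward) and 126 against 218 in Vc+ cells (1.70-fold, beside 4.58%). In Vc+ cells Ccnd2 was also lower (4584 and 7539, 1.64-fold) and Cdkn2a higher (178 and 117, 1.5-fold; 2.89% of genes upward). The test over the 14 libraries called no member with or without a trend, and 0.00934% of all genes; 4 members had an unadjusted p under 0.05, with Cdkn2b at -1.01 ± 0.26 (adjusted p = 0.311). Both libraries with the hairpin also carry shDnmt1, and their 5 or 4 listed macrophage markers summed to 338 and 325, against 493 and 400 with shDnmt1; the 6 listed in MEFs summed to 536 with shp53 and 239 in the control, and to 106 and 1008 in the second pair. Their part in the result was not tested.

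**Figure D4:**
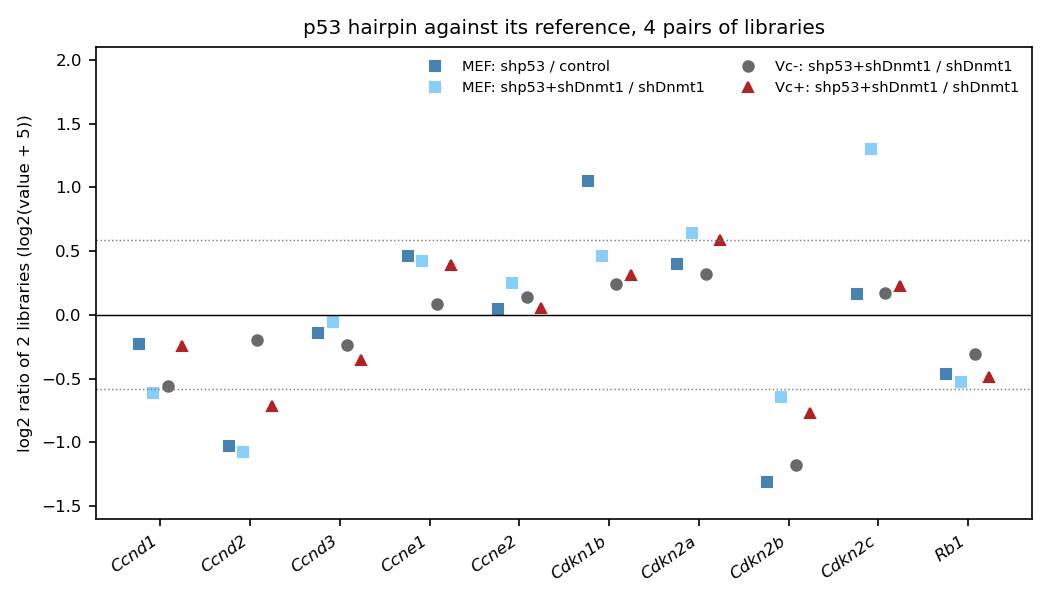
Log2 ratio (y axis, log2(value + 5)) of a library with the p53 hairpin to its reference for each gene (x axis), in 4 pairs of libraries; dotted lines mark 1.5-fold and no error is given because each point is 1 pair. Cdkn2b lies below the lower line in all 4 pairs, between -1.31 and -0.64.

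The 5C control library differed from the MEF control in most genes: 67.9% of all genes were at least 1.5-fold apart (29.8% higher and 38.0% lower), and 97.1% of its ranks hold another value than in the control. Of the members, 3 were higher and 5 lower. Cdkn2a was at 1717 in 5C and 92 in the MEF control, 17.8-fold higher, and only 78 genes had a higher ratio. Cdkn2b was at 985 and 428 (2.29-fold higher) and Ccnd3 at 1037 and 667 (1.55-fold higher). Ccnd2 was at 604 and 4249 (6.99-fold lower), Ccnd1 at 1142 and 7153 (6.24-fold lower), Ccne1 at 133 and 488 (3.57-fold lower), Ccne2 at 138 and 380 (2.69-fold lower) and Cdkn1b at 72 and 191 (2.55-fold lower). Cdkn2c (38 and 36) and Rb1 (283 and 255) were within 1.5-fold.

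In 5C the inhibitors of the Ink4 locus were thus high and Ccnd1, Ccnd2 and the E-type cyclins low. Of 13 listed pocket proteins, E2F and DP factors 12 were at least 1.5-fold lower in 5C, led by E2f8 (13 and 360), and of the 24 S phase genes 16 were lower and 3 higher. Myc was at 27 and 839. The 6 listed macrophage markers summed to 4662 in 5C and 239 in the MEF control, with Adgre1, Cd14, Fcer1g and Tyrobp not listed, and the fibroblast markers to 161286 and 121859. Their part in the result was not tested, and with 1 library of 5C these differences have no replicate check.

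Vitamin C and reprogramming were compared across tables, as ratios of libraries with the same construct, each pair centred on its median gene. Centring removed log2 shifts of 0.52 to 0.57 between Vc+ and Vc-. Relative to the median gene, Rb1 (median log2 ratio -0.39, range -1.05 to -0.11) and Ccnd2 (-0.26, range -0.89 to -0.01) were lower in Vc+ in all 7 pairs, as were 8.1% of all genes, but both medians turn positive without centring (0.18 and 0.27). Cdkn1b was higher in 5 of 7 pairs (median 0.64, a 1.56-fold difference), and in all 7 without centring. Its 4 pairs without Tet1CD were the highest: 361 in the Vc+ control against 153 in the Vc- control, 361 and 147 with shDnmt1, 340 and 136 with Dnmt1, and 449 and 175 with shp53+shDnmt1. Ccnd1 was higher in Vc+ in the 3 pairs with Tet1CD and lower in the 4 without.

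SKOM cells against MEFs, 5 pairs in each medium, differed most in Rb1. Rb1 was at 183 to 385 in the 7 libraries of the MEF table, at 1074 to 1687 in the Vc- table and at 1167 to 1781 in the Vc+ table. It was higher in each of the 5 pairs, with a median of 6.43-fold in Vc- (log2 2.69, range 2.20 to 2.76) and 4.91-fold in Vc+ (2.30, range 1.36 to 2.46). Of all genes, 6.02% and 6.72% were higher in every pair with a median of at least 2-fold. Rb1 thus splits by table, with 5C (283) among the MEF libraries. Whether the 3 tables were counted in the same way is not given in the sources used here, so for this gene the table and the cells cannot be told apart. Lpar6, which lies inside Rb1 on the other strand, was at 172 to 342 in the MEF table and 128 to 243 in the SKOM tables. The relatives Rbl1 and Rbl2 had medians of 1.07-fold and 1.27-fold in Vc- and 1.24-fold and 1.22-fold in Vc+.

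Cdkn2b was lower in SKOM cells in every pair, with a median of 1.75-fold in Vc- and 2.99-fold in Vc+. Its Tet1CD pair in Vc+ had the smallest difference and is lower only after centring (671 in SKOM cells and 591 in MEFs). Ccnd1 (median 1.43-fold) and Ccnd2 (1.92-fold) were higher in every Vc- pair, for the Tet1CD pair of Ccnd1 only after centring (5732 in SKOM cells and 6682 in MEFs). In Vc+ Cdkn1b (1.5-fold) was higher and Ccne1 (1.44-fold) and Ccne2 (1.12-fold, a sign that turns without centring) were lower in every pair. Thus 4 of 10 members in Vc- and 5 in Vc+ kept 1 direction, as did 62.5% and 63.1% of all genes. Both comparisons use the same MEF libraries. SKOM cells differ from MEFs in medium, day and viruses together, which cannot be told apart, and their fibroblast markers summed to 35569 to 59535 in Vc+ and, for 9 of the 10, 38216 to 45469 in Vc-, against 89806 to 129096 in MEFs without 5C, on the scales of separate tables.

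**Figure D5:**
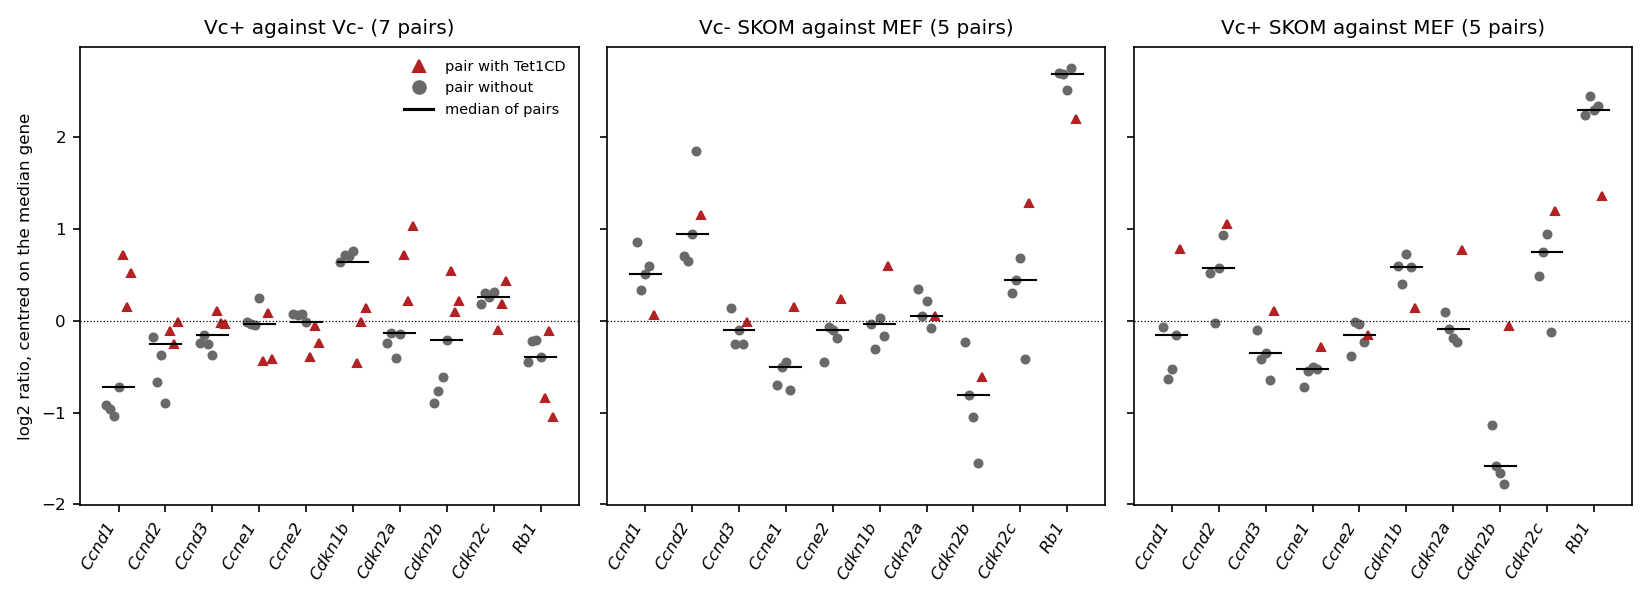
Log2 ratio of libraries with the same construct (y axis, centred on the median gene of each pair) for each gene (x axis): Vc+ against Vc- in 7 pairs, and SKOM against MEFs in 5 pairs for each medium; triangles are pairs with Tet1CD and bars are medians. Rb1 is at 1.36 or above in each SKOM pair and below 0 in each vitamin C pair.

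Across the 14 SKOM libraries, with values centred within each medium, likeness among the members is given as Pearson correlations. No test was made, since the libraries share constructs. This centring leaves the difference between libraries with and without Tet1CD in place, so r includes it. In the additive fit 45.2% of all genes were called for Tet1CD. Cdkn2b went with Ccnd3 (r = 0.926) and against Ccne1 (r = -0.909), and Ccne1 with Ccne2 (r = 0.876) and Cdkn1b (r = 0.866). Cdkn2a and Cdkn2b, neighbours on chromosome 4, had r = -0.06 over both media together. With Tet1CD they changed by -0.36 and 0.53 in Vc- cells, neither passing the test, and by 0.51 and 1.53 in Vc+ cells. The pooled r therefore does not describe either medium alone. The genes most like 9 of the members were Tor4a for Cdkn2b (r = 0.991), Stk38 for Cdkn1b (r = 0.975), Hnrnpa3 for Ccne1 (r = 0.974), Abhd4 for Ccnd3 (r = 0.973), Gm4631 for Ccne2 (r = 0.967), Fam129b for Ccnd2 (r = 0.955), Wnt5a for Ccnd1 (r = 0.951), Usp3 for Cdkn2a (r = 0.906) and Tprkb for Rb1 (r = 0.88).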

How the data were processed

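RNA was prepared with Trizol and sequenced from TruSeq RNA libraries, per the labels' protocols. Bowtie, RSEM and mm10 appear in the submitters' processing notes, with no version or role. The unit is a score: whole numbers, already normalized by the authors and deposited as 3 tables, with 1 ranked list nearly shared by the libraries of each SKOM table and by those of the MEF table other than MEF Tet1CD and 5C control, and 10 genes (9 in MEF Tet1CD) at a common highest value. How they were normalized, which genes were dropped and which strand setting was used is not given in the sources used here. Such values allow no counting error or detection limit. No value column was left out.

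Tests ran on log2(value + 5) for genes whose mean over the fitted libraries reached 10, which all 10 members did. limma 3.58.1 in R 4.3.3 (eBayes, trend) was fitted to the whole table, with Benjamini-Hochberg adjustment and a threshold of 0.05. The additive model of the 14 SKOM libraries (vitamin C, Dnmt1, shDnmt1, Tet1CD, shp53) left 8 residual degrees of freedom, that with vitamin C interactions 4, and the fit to each medium alone 2. Their residual spread comes from different construct combinations, not from replicates, and holds any departure from additivity. The scripts were tested on simulated data. Between tables, and in MEFs, ratios of 2 libraries are given without a test, as folds of value + 5. The alternatives were a pseudocount of 1 or 32, a mean filter of 50 or none, no trend, centring, and leaving out each library.

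The members and all lists were chosen with earlier results of these data known. Beside the members, the text names up to 4 genes of a list with the largest change past the threshold, the targeted genes, and the genes best correlated with a member. Markers are also named where they are not listed or at 0. Other named genes (Cdkn1a, Lpar6, Rbl1, Rbl2, Myc, Ccna2, E2f8) were chosen after their values were seen. The gene best correlated with Cdkn2c is not reported here.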

Additional observations from a re-analysis of the deposited data

Results flagged for a closer look

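The Tet1CD change differed between the media, by an interaction term in limma over 14 SKOM libraries, for 4 of the 10 genes. Since each medium is a separately normalized table, medium and table cannot be told apart here. The change in Vc+ minus that in Vc- was 1.39 for Ccnd1, 1.00 for Cdkn2b, 0.87 for Cdkn2a and -0.84 for Cdkn1b on the log2 scale. For Ccnd1 and Cdkn2a the fitted changes had opposite signs in the 2 media, but neither Vc- change passed in limma (adjusted p = 0.263 and 0.0692). The Cdkn2a difference lost its call without any 1 of 4 Vc- libraries. In the same libraries the summed macrophage markers were 2449 to 3250 with Tet1CD and 338 to 493 without in Vc+ cells, and 633 to 735 and 302 to 400 in Vc- cells; the sums of Pou5f1 and Sox2 were 5455 to 5759 with Tet1CD and 8657 to 10692 without in Vc+ cells, and 4930 to 6511 and 5662 to 7332 in Vc- cells. Their part in these differences was not tested.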

How the results depend on the processing

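Counting error could not be assessed because the values carry no depth, and the steps of 10 genes limit how finely Ccnd1 and Ccnd2 can be compared. No analysis paired by replicate was possible because the labels give no replicate numbers. The fits hold terms for the constructs that libraries share. The pairs of libraries compared between tables share a construct, and all pairs in the report are ratios without a test. Over the settings other than leaving out libraries, 692 of 719 values of single members kept their side of the threshold or, between tables, stayed within the SD of their pairs. A turn of sign counted as a reversal only for members called or with 1 direction in every pair. The 3 such reversals came without centring: Ccnd2 (0.27) and Rb1 (0.18) in the vitamin C ratios and Ccne2 (0.077) in SKOM against MEFs with vitamin C. Medians of other members turned sign too without centring: Ccnd3, Ccne1, Ccne2, Cdkn2a and Cdkn2b in the vitamin C ratios. In SKOM against MEFs so did Cdkn2a in both media and Ccnd1 with vitamin C. Of the members with 1 direction in every pair of SKOM cells and MEFs, Cdkn2b with and Ccnd1 without vitamin C also had their Tet1CD pair turn without centring. Without a trend, 6 of 10 members were called for Tet1CD in Vc+ cells and 6 in the additive fit. Also without a trend, 204 genes were called upward and 100 downward for Tet1CD in Vc- cells, against 777 and 791 with it, and 1 upward for shp53. A mean filter of 50 called 1 member for Tet1CD in Vc- cells (Cdkn2b, adjusted p = 0.047). That filter, and likewise centring each library, called 2 genes downward for shp53. Members with 1 direction in every vitamin C pair numbered 1 with a pseudocount of 32 and 6 without centring, against 2. With a pseudocount of 32, 2 members in place of 4 were past 1.5-fold for Tet1CD in MEFs. The cause of these moves was not tested.

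Leaving out 1 library at a time gave, for Tet1CD, 3 to 9 members, 1146 to 2537 genes upward and 1049 to 2943 downward in Vc+ cells, and 0 to 2 members, 3 to 1158 genes upward and 2 to 1202 downward in Vc- cells. The 9 members in Vc+ cells came without shp53+shDnmt1, which tests nothing there; without each of the other 6 libraries 3 to 6 were called. The lowest gene counts in Vc- cells came without Dnmt1. The additive Tet1CD fit gave 2 to 8 members, 1690 to 2390 genes upward and 2011 to 2925 downward. The difference between media gave 3 to 4 members, 450 to 1148 genes upward and 311 to 1173 downward. For shDnmt1 0 to 1 genes were called upward and 0 to 3 downward, and for shp53 1 to 5 downward.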
